A study of Mus musculus with 8 samples.

Results

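The contractile genes of the actin system described here are 10 genes of smooth muscle and striated muscle, namely the actins *Acta1*, *Acta2*, *Actc1* and *Actg2*, the actin-binding proteins *Tagln*, *Cnn1* and *Cnn2*, the myosin light chain *Myl9* and the tropomyosins *Tpm1* and *Tpm2*. They were taken from the arrays as every probe that is not a control and carries one of these gene names, which gave 16 probes in 25 spots, out of 55681 probes and 36406 gene names. The genes were chosen by their signal in these same arrays, in which they were higher after retinoic acid (RA), so the differences between the conditions are given below as a description and without a test.

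The study used E14Tg2A.4 cells, a line of mouse embryonic stem (ES) cells, in its work on how Polycomb proteins act during differentiation. Cells were either left untreated or received 1 µM all-trans RA for 72 h in medium that lacked leukemia inhibitory factor, the cytokine that keeps ES cells self-renewing, so the change of medium and RA cannot be told apart. Each condition had 4 biological replicates, and the total RNA of each was labelled with Cy3 and hybridised to a single-colour Agilent mouse expression array. No cell carried a transgene or a knockdown, and one ES line was used, so the values describe this line only.

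Smooth muscle cells contract when myosin filaments pull on filaments of actin that are lined by tropomyosin, and calponins and transgelin bind these filaments. The muscle actins are encoded by separate genes whose proteins are nearly identical, and each is known mainly from one muscle, with *Acta1* in skeletal muscle, *Actc1* in heart, *Acta2* in vascular smooth muscle and *Actg2* in the smooth muscle of gut and bladder. Many of these genes are known targets of serum response factor (SRF), which binds a DNA motif called the CArG box and works with the coactivators myocardin and the myocardin-related factors Mkl1 and Mkl2, the latter being sensitive to free actin.

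RefSeq promoter windows, running from 250 bases before to 50 bases after the gene start on GRCm38.p6, were at hand for 8 of the 10 genes, the exceptions being *Actg2* and *Tagln*. A CArG box (CC, 6 bases that are A or T, then GG, which reads as a CArG box on both strands) was present in 4 of the 8, namely *Acta1*, *Actc1*, *Cnn2* and *Myl9*, against 1.63% of all 32851 promoter windows. When 1 base of the core was allowed to be C or G, *Acta2* was added, giving 5 of 8 against 9.98% of all windows. At least 2 boxes of either kind lay in 4 of the 8 windows, against 0.822% of all. The MCAT core CATTCC, searched on both strands, was found in *Acta1*, *Acta2* and *Tpm1* (3 of 8, against 14.7% of all windows), and TATAAA, also on both strands, in *Acta1* and *Actc1* (2 of 8, against 13.6%). The TATAAA match began 7 bases before the gene start in *Acta1* and 33 bases after it in *Actc1*. The windows of *Cnn1* and *Tpm2* held none of these letters, and a match is a description of the sequence and not a binding site.

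The stretches with boxes are shown because they are what the 5 windows share beyond the gene names. They are printed on the strand of the gene, with the boxes in capitals, and each begins and ends 10 bases outside its outermost box. They lie on GRCm38.p6 at chr8:123894829-123894990 on the minus strand (*Acta1*), chr19:34255388-34255467 on the minus strand (*Acta2*), chr2:114052903-114053060 on the minus strand (*Actc1*), chr10:79988534-79988563 on the plus strand (*Cnn2*) and chr2:156775293-156775384 on the plus strand (*Myl9*).
Acta1: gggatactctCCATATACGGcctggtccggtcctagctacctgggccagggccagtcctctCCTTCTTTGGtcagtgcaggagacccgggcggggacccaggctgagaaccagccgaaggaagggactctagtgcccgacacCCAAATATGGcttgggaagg
Acta2: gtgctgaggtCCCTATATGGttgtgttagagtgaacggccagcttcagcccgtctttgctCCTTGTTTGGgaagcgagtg
Actc1: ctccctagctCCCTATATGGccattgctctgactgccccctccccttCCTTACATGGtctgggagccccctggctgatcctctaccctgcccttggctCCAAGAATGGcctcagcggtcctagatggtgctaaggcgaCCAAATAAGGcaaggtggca
Cnn2: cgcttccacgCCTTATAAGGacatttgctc
Myl9: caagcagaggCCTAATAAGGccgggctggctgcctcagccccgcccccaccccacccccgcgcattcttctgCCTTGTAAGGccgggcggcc

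The box nearest to the gene start began 73 bases before it in *Acta1* and 47 bases before it in *Actc1*, both exact CArG boxes. In *Acta2* the boxes began 84 and 34 bases before the start, and each had 1 core base that is not A or T. *Cnn2* had a single exact box, 56 bases before the start. *Myl9* had an exact box 161 bases and a second, inexact one 99 bases before the start. Thus the 3 actins held several boxes each, and the exact boxes of *Acta1*, *Actc1* and *Cnn2* all began within 73 bases of the start.

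**Figure D1:**
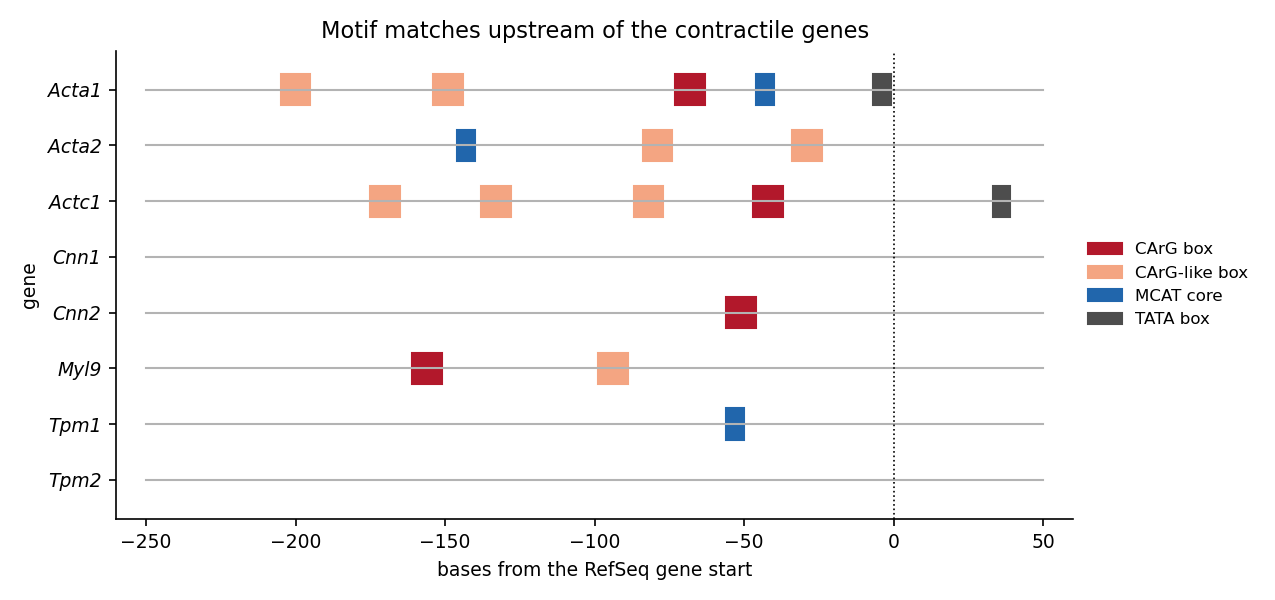
Motif matches in the promoter windows of the 8 genes with a RefSeq entry, by distance in bases from the gene start (dotted line). Exact CArG boxes stand in *Acta1*, *Actc1*, *Cnn2* and *Myl9*, *Acta2* has inexact boxes only, and the lines of *Cnn1* and *Tpm2* are empty.

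Each array held 59305 spots that are not controls, of which 56.7% to 62.7% were well above background by the scanner software, and none was saturated. Values below are log2 signals relative to the 75th percentile of the array, so a value of 0 means that a probe was as bright as that percentile. Probes bind with unequal strength, and levels of different probes are therefore not set against each other. The 75th percentile left the median probe at a difference of -0.28 between RA and untreated cells on the log2 scale, against which the differences can be read. ES cell markers checked the label of the untreated cells: *Pou5f1* (Oct4), *Nanog* and the other 6 genes of the list were detected above background on every untreated array, and all 8 fell after RA by limma, although a second *Nanog* probe gave 0.52.

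All 10 genes were at least 1.5-fold higher after RA, where 16.9% of all genes were, and in all 10 the 4 RA arrays lay above the 4 untreated arrays, where 15.2% of all genes had that order. Since this contrast chose the genes, nothing is read from these counts. The median difference of the 10 genes was 4.59 on the log2 scale, and single genes ranged from 2.60 (*Tpm2*) to 9.19 (*Acta2*). By the size of the increase over all 36406 gene names, *Acta2* ranked 2, *Actc1* 3 and *Acta1* 8, followed by *Tagln* at 34, *Cnn1* at 172, *Myl9* at 278 and *Actg2* at 291, while *Cnn2* at 822, *Tpm1* at 907 and *Tpm2* at 1072 stood lower. The ranks depend on the background correction. With normexp *Acta2* ranked 1, *Acta1* 3, *Tagln* 4, *Actc1* 9, *Cnn1* 46 and *Myl9* 87. *Cnn2* was then at 325, *Tpm1* at 365, *Tpm2* at 495 and *Actg2* lowest of the 10 genes at 624. *Actg2* was also lowest with normexp and quantile normalization (589) and with the log2 values of the authors (591). These are bulk RNA samples, in which a few cells with much of a transcript and many cells with little of it cannot be told apart.

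**Figure D2:**
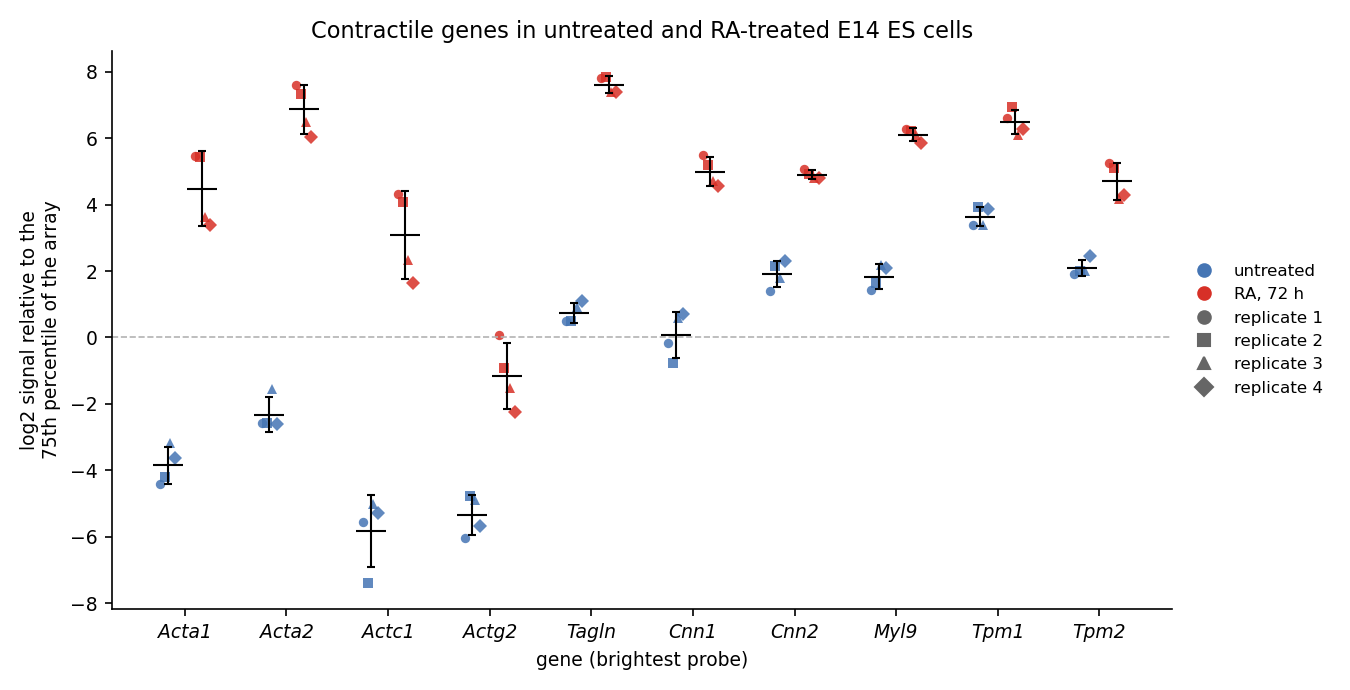
Log2 signal relative to the 75th percentile of the array for the brightest probe of each gene, with 4 untreated (blue) and 4 RA arrays (red). Marker shapes give the replicate number and black lines the mean ± SD; in every gene the RA arrays sit above the untreated arrays, with the widest gap in *Acta2*, where the means differ by 9.19.

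*Acta2*, the vascular smooth muscle actin, had a log2 signal of -2.57, -2.57, -1.54 and -2.60 on untreated arrays 1 to 4 and of 7.61, 7.34, 6.49 and 6.02 on RA arrays 1 to 4. Every RA array was thus far above every untreated array, and untreated array 3 was brighter than the other untreated arrays. The means were -2.32 ± 0.52 (SD, n = 4) and 6.87 ± 0.74 (SD, n = 4), a 583-fold difference. The *Acta2* probe was printed in 10 spots on each array, and the SD between these spots of one array was between 0.0272 and 0.131, which was small beside the scatter between the RA replicates. Among the untreated replicates this held through replicate 3 alone, since the other 3 lay as close together as the spots of one array.

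*Actc1*, the cardiac actin, had a log2 signal of -5.55, -7.41, -5.01 and -5.28 on the untreated arrays and of 4.32, 4.07, 2.32 and 1.63 on the RA arrays. The untreated signals were near the limit of detection, since 1 of the 4 was well above background, whereas all 4 RA signals were. The difference of 8.90 (477-fold) therefore depends on how background is treated, and with another background correction (normexp) it was 6.35. In both versions every RA array of *Actc1* lay above every untreated array.

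*Acta1*, the skeletal muscle actin, had a log2 signal of -4.42, -4.19, -3.16 and -3.64 on the untreated arrays and of 5.47, 5.44, 3.63 and 3.37 on the RA arrays. RA arrays 1 and 2 were almost level, and RA arrays 3 and 4 were dimmer by more than the whole range of the untreated arrays. The means differed by 8.33, or 323-fold, and by 7.09 with normexp. The signal was well above background on all 8 arrays.

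*Actg2*, the enteric smooth muscle actin, had a log2 signal of -6.05, -4.78, -4.89 and -5.67 on the untreated arrays and of 0.08, -0.91, -1.51 and -2.26 on the RA arrays. The groups did not overlap, although 2 of the 4 untreated signals were well above background. *Actg2* differed by 4.20 (18.3-fold) and by 2.31 with normexp, the smallest difference among the 4 muscle actins in either version.

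Because the muscle actins are so alike, the probes themselves were compared. No pair among the 4 actin probes shared a run of more than 6 bases. Probes can lie in different parts of their transcripts, so this does not show that a probe is specific. Whether a probe also catches the transcript of another actin was not tested. The probe of *Acta1* is shown because this gene differed 323-fold and has near-identical relatives. It is 60 bases long and maps to mm9, the build of the scanner output, at chr8:126416197-126416256 on the minus strand.
Acta1: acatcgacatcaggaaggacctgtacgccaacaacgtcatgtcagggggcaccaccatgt

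Among the actin-binding proteins, *Tagln* encodes transgelin (SM22), an early marker of smooth muscle that bundles actin filaments. Its log2 signal was 0.48, 0.49, 0.92 and 1.08 on the untreated arrays and 7.82, 7.84, 7.40 and 7.38 on the RA arrays. *Tagln* was thus already bright in untreated cells, the replicates were tight, with SDs of 0.30 and 0.26, and the groups lay far apart. Its difference was 6.87, or 117-fold.

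*Cnn1* encodes basic calponin, which restrains the myosin ATPase in differentiated smooth muscle. Its log2 signal was -0.17, -0.77, 0.59 and 0.69 on the untreated arrays and 5.51, 5.20, 4.70 and 4.55 on the RA arrays. Untreated cells varied more than RA-treated cells here, and no array of one condition reached the range of the other. The means differed by 4.90, or 30.0-fold.

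*Cnn2*, the calponin that is found in many cell types besides smooth muscle, had a log2 signal of 1.41, 2.15, 1.78 and 2.31 on the untreated arrays and of 5.08, 4.91, 4.79 and 4.81 on the RA arrays. The RA arrays lay close together, with an SD of 0.13 against 0.40 in the untreated arrays, and the groups did not overlap. Its brightest probe differed by 2.99 (7.92-fold), and a second *Cnn2* probe by 2.86. Arrays of slide 1 alone gave 3.35 and those of slide 2 alone 2.62, on each side of the pooled value.

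*Myl9* encodes the regulatory myosin light chain of smooth muscle, whose phosphorylation sets off contraction. Its log2 signal was 1.43, 1.63, 2.17 and 2.10 on the untreated arrays and 6.27, 6.22, 6.08 and 5.84 on the RA arrays. The RA arrays lay close together, and all were above the untreated arrays. The difference was 4.27, or 19.3-fold.

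*Tpm1* encodes alpha-tropomyosin, and alternative promoters and exons of the gene give muscle and non-muscle forms. The array carries 5 probes named *Tpm1*, and they did not move alike. The brightest probe (A_55_P2187038) had a log2 signal of 3.39, 3.92, 3.38 and 3.87 on the untreated arrays and of 6.62, 6.93, 6.10 and 6.28 on the RA arrays, a difference of 2.84 (7.18-fold). Probe A_55_P2187043, which shares a run of 46 bases with it and so reads the same stretch, gave 2.83. The probes A_55_P2032192 and A_55_P2078680 differed by more, with 4.68 (25.6-fold) and 3.61 (12.2-fold).

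One *Tpm1* probe stood apart. A_55_P2187053 had a log2 signal of 0.23, 0.14, -0.24 and 0.22 on the untreated arrays and of 0.47, 0.73, -0.04 and 0.01 on the RA arrays. These groups overlapped, and the means differed by 0.21 (1.15-fold), although the probe was well above background on all 8 arrays. It was the one of the 16 probes that was not at least 1.5-fold higher, and over the others the difference ran from 2.60 to 9.19.

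The pair of *Tpm1* probes with the larger differences is shown, because they read different stretches of the gene. Their place relative to exons was not checked here. Both are 60 bases long and lie on the minus strand of mm9, A_55_P2032192 at chr9:66871166-66871225 and A_55_P2078680 at chr9:66880274-66880333. The longest run of letters they have in common is 10 bases.
A_55_P2032192: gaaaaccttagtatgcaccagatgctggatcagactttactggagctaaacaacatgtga
A_55_P2078680: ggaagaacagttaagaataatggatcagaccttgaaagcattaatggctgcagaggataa

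*Tpm2* encodes beta-tropomyosin, which pairs with alpha-tropomyosin in smooth and skeletal muscle. Its brighter probe had a log2 signal of 1.92, 2.00, 2.01 and 2.46 on the untreated arrays and of 5.25, 5.09, 4.16 and 4.29 on the RA arrays. The untreated arrays were close together except for replicate 4, and the RA arrays fell into a brighter and a dimmer pair. Both probes of *Tpm2* gave almost the same difference, 2.60 (6.07-fold) and 2.61, in contrast to the probes of *Tpm1*.

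**Figure D3:**
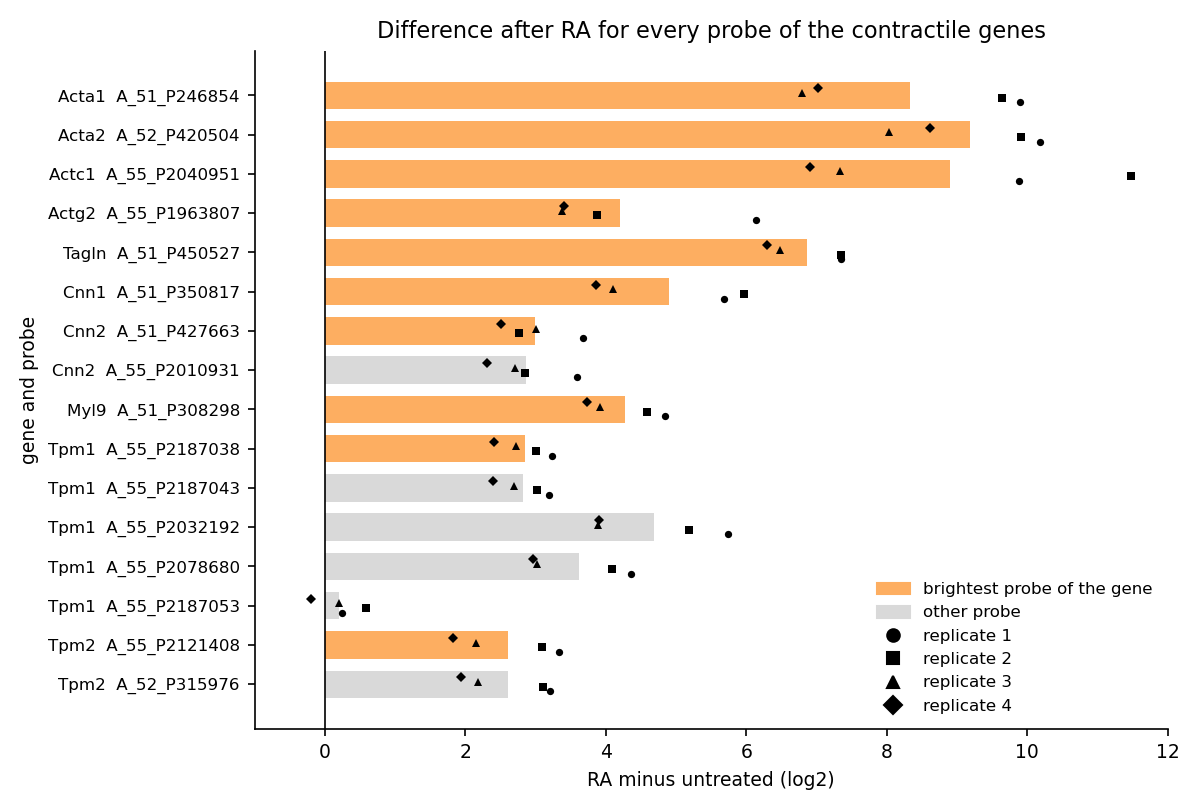
Difference between RA and untreated cells (log2) for all 16 probes, with bars for the difference of the means and points for the difference within each replicate number. The *Tpm1* probe A_55_P2187053 stands near 0, at 0.21, while the other 4 *Tpm1* probes lie between 2.83 and 4.68.

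The RA arrays had a common order. In 10 of the 10 genes, RA replicates 1 and 2 were both above RA replicates 3 and 4, an order that 33.7% of all genes had. In *Actc1* RA array 1 was at 4.32 and RA array 4 at 1.63, whereas in *Cnn2* they were at 5.08 and 4.81. This order did not follow the slide, since RA arrays 1 and 4 were on slide 1 and RA arrays 2 and 3 on slide 2. *Pou5f1*, the ES cell factor, was also higher on the first pair of RA arrays, with a log2 signal of 0.39, 2.05, -0.68 and -1.16 on RA arrays 1 to 4. The part of this in the order of the contractile genes was not tested.

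**Figure D4:**
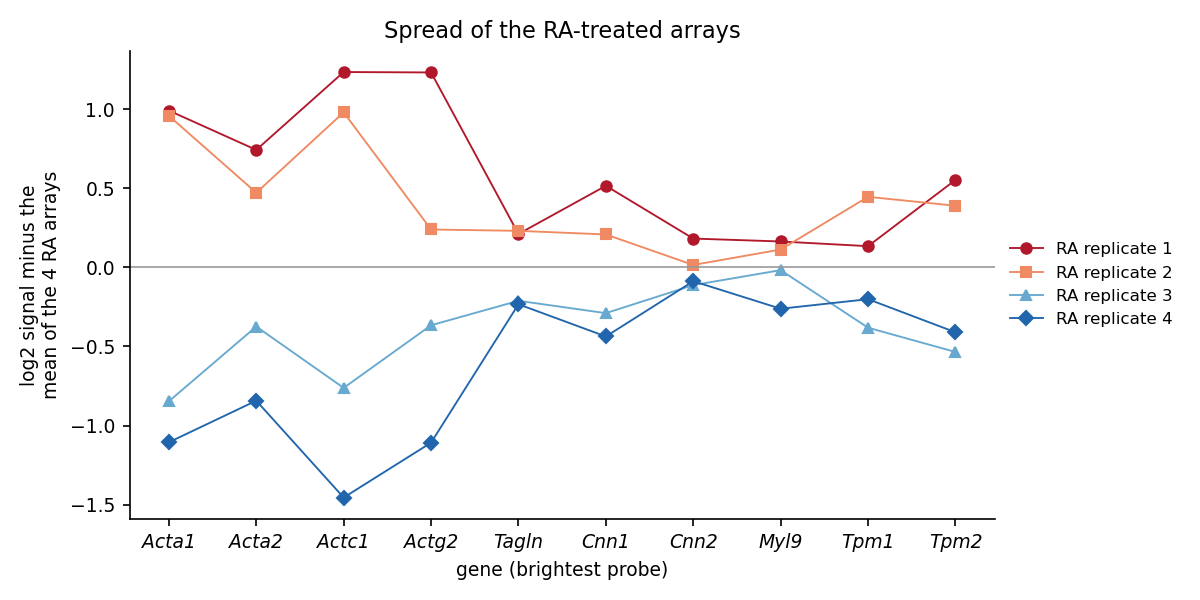
Log2 signal of each RA array minus the mean of the 4 RA arrays, for the brightest probe of each gene. RA replicates 1 and 2 lie above 0 and RA replicates 3 and 4 below 0 in all 10 genes.

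The same comparison was then read in genes related to the set, which are not members of it. A gene was called when limma gave an adjusted p below 0.05 and the fold exceeded 1.5, and by this rule 13.9% of all genes were called higher and 22.1% lower, or 36.1% in either direction. The excess of lower calls depends on the processing. Here 5074 genes were called higher and 8057 lower, against 4667 and 4784 with the log2 values of the authors. The median difference over all probes was -0.28. The lists were drawn up with earlier results of these arrays known, so their counts and p-values are not an independent test.

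Of the 21 genes of the SRF pathway, which links actin assembly to SRF and its cofactors, 11 rose, 2 fell and 8 were not called, with a median difference of 0.66. *Srf* itself had a log2 signal of 2.48, 2.80, 2.15 and 2.81 on the untreated arrays and of 3.15, 3.21, 3.40 and 3.13 on the RA arrays. It rose by 0.66 ± 0.18 (SE, adjusted p = 0.0186, limma), but the call was lost with the replicate number as a block (adjusted p = 0.054), and without untreated replicate 3 or RA replicate 3, with an adjusted p of 0.0546 as the highest over 15 settings. A second *Srf* probe gave -0.16, so the probes of this gene disagree.

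The coactivators differed from each other in size. *Myocd*, which encodes myocardin, had a log2 signal of -7.29, -5.94, -5.55 and -7.24 on the untreated arrays, none of it well above background, and of -0.55, -1.18, -2.74 and -2.46 on the RA arrays, all well above background. With the 75th percentile scaling, its RA signal exceeded the untreated limit of detection by at least 13.4-fold (adjusted p = 0.000255, limma), while the smallest difference over 15 alternative settings was 2.07 on the log2 scale. RA arrays 1 and 2 were again above RA arrays 3 and 4. *Mkl1* rose by 0.86 ± 0.15 (SE, adjusted p = 0.00162) and *Mkl2* by 1.51 ± 0.13 (SE, adjusted p = 4.16e-05). Of the LIM-domain proteins, *Fhl2*, which binds SRF, rose by 3.89, and *Fhl1* rose by 2.90, with a smallest value of 2.15 over the settings.

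Upstream of SRF, *Rhob*, a small GTPase that promotes actin assembly, rose by 2.82 and *Cfl2*, the muscle cofilin that severs actin filaments, by 2.09, but second probes of these genes gave 2.03 and 1.05. In contrast, the formin *Diap1*, which elongates actin filaments, fell by 1.79 on the log2 scale.

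Of 9 SRF targets that lie outside the contractile apparatus 2 rose, 5 fell and 2 were not called, with a median of -0.99. The immediate early gene *Egr1*, a transcription factor induced by serum, fell by 3.55 on the log2 scale (adjusted p = 0.00154, limma). *Ier2* fell by 1.61 and *Egr2* by 1.33 (at the least -0.73 over the settings), whereas *Cyr61*, a secreted matrix protein, rose by 2.10 and the adhesion protein gene *Vcl* by 0.95. *Fosb* fell by 1.01, a call that was lost with the values processed by the authors and with normexp followed by quantile normalization, with -0.38 as the smallest change.

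**Figure D5:**
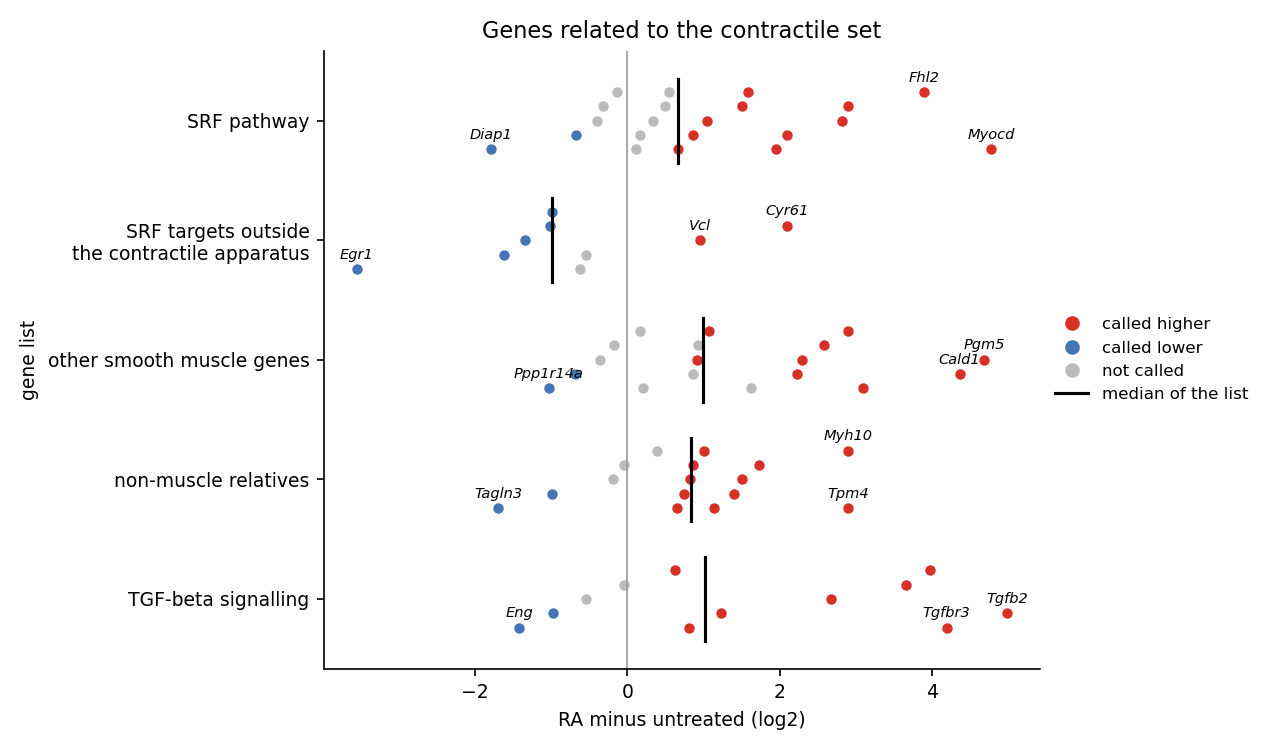
Difference between RA and untreated cells (log2) for the genes of 5 related lists, one point per gene at its brightest probe, coloured by the limma call, with the median of each list as a black line. The SRF targets outside the contractile apparatus have a median of -0.99, and the medians of the other 4 lists lie between 0.66 and 1.02.

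Of 18 other smooth muscle genes, 9 rose, 2 fell and 7 were not called, with a median of 1.00. *Pgm5*, a protein of adhesion plaques, rose by 4.68, *Cald1* (caldesmon, which binds actin and tropomyosin) by 4.36 and *Itga8*, an integrin chain, by 3.09. *Myh11*, the smooth muscle myosin heavy chain and the marker most particular to mature smooth muscle, rose by 2.89 ± 0.67 (SE, adjusted p = 0.00871, limma) and was well above background on 1 of 4 untreated and on 4 of 4 RA arrays. Over the 15 settings its difference ran from 0.87 to 3.43, and that of *Pgm5*, well above background on 2 of 4 untreated arrays, from 2.91 to 4.95.

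Not all of this programme was detected or higher. *Lmod1*, an actin nucleator of smooth muscle, was not well above background on any array. *Smtn* (smoothelin) differed by 0.20 and was not called (adjusted p = 0.332). *Ppp1r14a*, an inhibitor of myosin phosphatase, fell by 1.03 on the log2 scale. *Des* (desmin, an intermediate filament of muscle) was called at 0.92 (adjusted p = 0.0389), but its arrays overlapped between the conditions and the call was lost in 9 of 15 alternative settings, among them the replicate block (adjusted p = 0.074) and 6 of the 8 fits with an array left out (without untreated replicate 1, 2 or 4 or RA replicate 1, 2 or 3). Over all 15 settings its adjusted p reached up to 0.102.

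Among 16 non-muscle relatives of the set, 11 rose, 2 fell and 3 were not called, with a median of 0.84. The cytoplasmic actins were not called at their brightest probes: *Actb* differed by -0.19 (adjusted p = 0.30) and *Actg1* by -0.04 (adjusted p = 0.813), signs that turn with the scaling of the arrays. The 4 other detected probes named *Actg1* were all higher after RA, by 0.13 to 1.87, so the probes of this gene disagree. *Tpm4*, a non-muscle tropomyosin, and *Myh10*, a non-muscle myosin heavy chain, each rose by 2.89. *Tagln2* rose by 1.73, while *Tagln3*, the form known from neurons, fell by 1.69 on the log2 scale.

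TGF-beta is a known inducer of *Acta2* and *Tagln*, and of 12 genes of its signalling 8 rose, 2 fell and 2 were not called, with a median of 1.02. The ligand *Tgfb2* rose by 4.98 and *Tgfb3* by 3.96, whereas *Tgfb1* fell by 0.97 on the log2 scale. Over the settings the difference of *Tgfb3* was as small as 2.95. Of the receptors, *Tgfbr3* rose by 4.19 and *Tgfbr2* by 3.65, and the signal transducer *Smad3* rose by 2.67 at its brightest probe and by 0.81 at another.

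Markers of other cells that make these actins were read beside the set, over whole lists. Sums are of linear signals relative to the 75th percentile and are carried by the brightest probes of a list, so each is set only against the same list in the other condition. Of 17 cardiac genes 8 rose and 3 fell, and the summed signal was 6.73 to 8.31 on the untreated and 9.26 to 20.6 on the RA arrays. *Tnnc1* rose by 4.13, *Tnnt2* by 3.54 and *Nkx2-5* by 3.40, whereas *Ttn* fell by 4.58 on the log2 scale. Of 14 skeletal muscle genes 2 rose and 7 fell (4 fell with the values of the authors and with normexp followed by quantile normalization, where *Myod1*, *Myog* and *Chrna1* were not called), and the sum was 9.82 to 12.2 on the untreated and 4.59 to 8.86 on the RA arrays. *Tnnt3* rose by 6.59, while *Myh3* fell by 4.71 and *Mylpf*, with the 75th percentile scaling, was at least 13.0-fold lower. *Myf5*, a regulator that defines the skeletal lineage, was not well above background on any array, and *Myog* was not on any RA array. Over the 15 settings these differences shrank to 2.78 (*Tnnc1*), 2.26 (*Tnnt2*), 2.34 (*Nkx2-5*), -3.17 (*Ttn*), 4.19 (*Tnnt3*), -3.26 (*Myh3*) and -1.71 (*Mylpf*) at the least.

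Of 10 fibroblast genes 8 rose and none fell, with a median of 4.59, and the summed signal went from 6.21 to 8.28 on the untreated to 103.0 to 154.1 on the RA arrays. *Dcn* rose by 8.07, *Col3a1* by 7.05 and *Col1a2* by 6.49. Of 6 pericyte and mural genes 3 rose and none fell, with sums of 28.6 to 49.3 and 44.1 to 55.5, most of which came from *Mcam*, which was not called (adjusted p = 0.374). In this list *Rgs5* rose by 3.65 and *Kcnj8* was not well above background on any array. All 8 primitive endoderm genes rose, with sums of 7.84 to 22.2 and 39.4 to 65.9, among them *Afp* by 6.18 and *Gata6* by 3.28, and *Ttr*, with the 75th percentile scaling, was at least 43.1-fold higher. All 8 ES cell genes fell, with sums of 449 to 624 and 45.6 to 119.8. The smallest values over the 15 settings were 6.33 for *Dcn*, 5.18 for *Col3a1*, 1.48 for *Rgs5*, 3.89 for *Afp* and 3.48 for *Ttr*. The part of any of these cell types in the differences of the 10 contractile genes was not tested.

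Over the 8 arrays, the pattern of the set was taken as the median of the 10 genes after each was centred on its own mean, and genes were ordered by the root mean square difference of their own centred pattern from it. Outside the set the 5 nearest were *5033430I15Rik* (0.232 on the log2 scale), *Cd248*, a surface protein of stromal cells (0.265), a transcript named by its position alone (0.307), *Slc25a24*, a mitochondrial carrier (0.311), and *Csf1*, a macrophage growth factor (0.322). Their differences ran from 4.54 (*Slc25a24*) to 5.10 (*5033430I15Rik*), close to the 4.83 of the median pattern, as the measure itself requires. The transcript named by its position was not well above background on any untreated array, and *5033430I15Rik* was on 2 of them. The differences of these 2 therefore depend on how background is treated. With 8 arrays in 2 conditions, the likeness mostly reflects the difference between the conditions.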

How the data were processed

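Labels gave the condition and replicate number of each of the 8 arrays. The authors deposited Agilent Feature Extraction output (version 10.7.3.1, mm9) with the processed intensity of each spot, corrected for background but not normalized between arrays, raw and background intensity and flags. They also deposited a table of log2 values of the same spots, with a median of 6.89 on every array. How that table was normalized is not given in the sources used here.

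In R (version 4.3.3), processed intensities were log2-transformed and each array's 75th percentile over non-control spots was subtracted. Control and outlier spots (124 to 145 per array) were left out, and spots of one probe were averaged. A gene takes its brightest probe over all arrays. Where a probe was not well above background on any array of a condition, the fold is a lower bound, computed against the higher of the dimmest detected signal and its own. limma (version 3.58.1) was fitted to all probes with Benjamini-Hochberg adjustment. On simulated data with a log2 change of 2, 157 of 200 changed probes were recovered, with 11 false calls over 55640 probes. The simulation changed a far smaller share of probes than the 36.1% of genes called in the data. Its figures therefore do not carry over to the real comparison. Precision is limited by 4 arrays per condition. Replicate numbers were taken to pair the samples, since same-numbered arrays deviated together (correlations of 0.104 to 0.189 over 27493 probes), although arrays of different number reached 0.142. That comes from the data, and not from the labels. The counts of calls and the p-values printed are from the fit without this pairing, unless a replicate block is named.

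The 10 genes and all lists were chosen with earlier results of these arrays known. Named genes are the members, *Srf*, *Myocd*, *Mkl1*, *Mkl2*, *Actb*, *Actg1*, *Myh11* and *Des*, up to 5 called genes per list with the largest change and no overlap of arrays, and the 5 genes nearest in pattern. *Diap1*, *Vcl*, *Ppp1r14a*, *Smtn*, *Lmod1*, *Myf5*, *Kcnj8*, *Mcam*, *Myod1*, *Chrna1* and *Tgfb1* were named after their values were seen. Scaling, background, probe, threshold, left-out array, slide and replicate block were varied. Identity between the proteins was not analysed here.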

Additional observations from a re-analysis of the deposited data

Results flagged for a closer look

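Among 32 groups of 4 arrays, one for each condition of the 16 probes, 2 had an array far from the other 3, where chance gives about 1.6. *Acta2* on untreated replicate 3 was at -1.54, while the other untreated arrays lay between -2.60 and -2.57. *Tpm2* (brighter probe) on untreated replicate 4 was at 2.46, while the others lay between 1.92 and 2.01.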

How the results depend on the processing

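All 10 genes stayed at least 1.5-fold higher under each of 18 settings (other scaling or background correction, mean over probes, each array left out, each slide alone, slide or replicate as a block), and their median stayed between 4.47 and 4.81. *Acta1*, *Actc1* and *Actg2* gave smaller differences in 3 settings, 7.09, 6.35 and 2.31 with normexp, 7.30, 6.51 and 2.46 with normexp and quantile normalization, and 7.27, 6.48 and 2.45 with the values of the authors. These genes were dim in untreated cells.

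The replicate block moved no count of calls by more than 1.5 times, and of the genes in the 5 related lists it changed the calls of *Srf* and *Des* only (adjusted p = 0.054 and 0.074). Genes called lower over the whole array were 8057, against 4798 with normexp and quantile normalization, 4784 with the values of the authors and 5274 at a fold above 2. On slide 1 alone 3013 were called higher and 4182 lower, and on slide 2 alone 2858 and 3619, each slide holding fewer arrays. Left-out arrays gave 4676 to 5137 genes higher and 7063 to 8434 lower.

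In the SRF pathway, 1 gene in place of 2 was called lower with quantile normalization, with normexp and quantile normalization, with the percentile over detected probes, with the values of the authors, on either slide and at a fold above 2, and 1 to 2 with an array left out. Its genes called higher were 7 in place of 11 on slide 1. Other smooth muscle genes called lower were 1 in place of 2 under all other scalings and corrections, with the mean over probes and at a fold above 2, 0 on either slide, and 1 to 2 with an array left out. SRF targets outside the contractile apparatus gave 1 higher call in place of 2 on either slide and at a fold above 2, and 3 and 2 lower calls in place of 5 on slides 1 and 2. Non-muscle relatives called higher were 5 in place of 11 on either slide and 7 at a fold above 2, and those called lower 1 in place of 2 on slide 1 and at a fold above 2. TGF-beta genes called higher were 5 in place of 8 on slide 1, and those called lower 0 on slide 1, 1 on slide 2 and 1 at a fold above 2, in place of 2. Skeletal muscle genes called lower were 4 in place of 7 with the values of the authors and with normexp and quantile normalization, and *Myod1* lost its call in 11 of 15 settings. The cause was not tested. Probes near background, as *Actc1* and *Actg2* in untreated cells, limit how large a difference can be measured.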

Other observations

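RA without leukemia inhibitory factor is used to start neuronal differentiation, and neural genes were read beside the contractile genes. Of 6 neural genes 1 rose, 1 fell and 4 were not called at 72 h, with a median difference of -0.17 on the log2 scale, beside 13.9% of all genes called higher, 22.1% called lower and a median over all probes of -0.28. With the log2 values of the authors the median over all probes was -0.01, and 4667 genes were called higher and 4784 lower. *Nes*, an intermediate filament of neural precursors that other dividing cells also make, rose by 2.10 (adjusted p = 2e-05, limma), and *Tubb3*, the neuronal tubulin, fell by 2.22 on the log2 scale (adjusted p = 0.000521). *Pax6*, chosen after its values were seen, differed by -0.64 and was not called (adjusted p = 0.229).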
